A study of Mus musculus with 8 samples.

Results

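The genes described here encode the signalling machinery of the T cell receptor, from the CD3 chains at the cell surface to the transcription factors at the end of the pathway, together with the enzymes and adaptors that restrain it. They were taken by symbol from a list of 43 genes, and 41 of the 43 had a probe set with a single gene symbol, of 18193 genes measured in all. Each gene is represented by its probe set of highest mean log2 intensity over all arrays, and 27 of the 41 are counted as activating, 13 as negative regulators and 1, Ptprc, as having both roles.

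RNA came from mouse CD4+ T cells sorted by flow cytometry on EGFP, in hemizygous males whose X-linked Foxp3 allele carried an EGFP tag. Foxp3 is the lineage transcription factor of regulatory T cells. The tagged allele was either wild type (called WT here) or a mutant allele written delta, so all 4 groups carried the reporter. There were 3 arrays of WT EGFP-positive cells, 3 of mutant EGFP-positive cells, 1 of WT EGFP-negative cells and 1 of mutant EGFP-negative cells, 8 arrays in all. The labels used here do not state the nature of the delta change, the strain, age or organ, any treatment, or whether an array pooled several mice. The p-values therefore measure the spread between these arrays, which may be technical.

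The Foxp3 probe set went against the labels, whereas other regulatory T cell markers followed the EGFP label, by less under the mutant allele than under WT. Foxp3 read 4.75, 4.86 and 4.64 on the log2 scale in the 3 arrays labelled WT EGFP-positive, 4.52 in the WT EGFP-negative array, 6.14 in the mutant EGFP-negative array, and 11.1, 11.51 and 11.21 in the 3 arrays labelled mutant EGFP-positive. Whether this probe set lies in the sequence that the delta allele changes is not known here, so every direction between alleles rests on the labels as deposited, and "mutant" and "WT" below stand for arrays so labelled. Il2ra, Ikzf2, Ctla4 and Tnfrsf18 were higher in WT EGFP-positive than in WT EGFP-negative cells, by 4.56, 4.18, 5.48 and 1.96 on the log2 scale. Within the mutant allele the same differences were 1.72, 0.63, 1.69 and 1.11. Ikzf2 already read 11.48 in the mutant EGFP-negative array. The means of these markers were 9.94, 12.16, 11.57 and 11.43 in WT and 9.19, 12.11, 10.95 and 11.31 in mutant EGFP-positive arrays. The array medians lay between 53.3 and 54.7 on the linear scale, and Pearson correlations over all probe sets were 0.98 to 0.9918 within the WT EGFP-positive arrays, 0.9879 to 0.9912 within the mutant ones and 0.9601 to 0.9688 between them. Cd3d, Cd3e and Cd3g read at least 12.04 on the log2 scale on every array, whereas the summed intensity of 6 B cell markers was 330 to 469 in WT EGFP-positive arrays against 305 to 390 in mutant ones. That of 7 myeloid markers was 407 to 1501 and 383 to 549. Neither list had a member past the threshold between these 2 groups.

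When the receptor binds antigen, Src-family kinases phosphorylate the CD3 and zeta chains, Zap70 docks on them and phosphorylates the scaffolds Lat and Lcp2 (SLP-76), and these gather Plcg1, Vav proteins, Grap2 (Gads) and Ras exchange factors. Calcium and diacylglycerol then drive NFAT, NF-kappaB and Ras signalling. Phosphatases, the kinase Csk, Cbl ubiquitin ligases, diacylglycerol kinases and inhibitory surface receptors such as Cd5 hold the cascade back. Regulatory T cells need receptor signals to develop and to suppress, and are known for transmitting them differently from conventional T cells.

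Between the mutant and WT EGFP-positive arrays, the list split: 12 members fell, 3 rose and 26 did not pass the threshold. The members that rose were the kinase gene Zap70, the adaptor gene Themis and the phosphatase gene Ptpn22. Those that fell included the zeta chain Cd247, the adaptor Grap2, the Ras exchange factors Rasgrp1 and Sos1, and 5 genes of the negative side, Cd5, Cbl, Ubash3b, Dgka and Pag1. The test was limma on log2 intensity over all 8 arrays, two-sided, with Benjamini-Hochberg adjustment over 45037 probe sets and a threshold of 0.05, and a difference is the mutant mean minus the WT mean. The 15 members that passed are 36.6% of the 41, against 16.5% of all genes. All 41 members were above the array median on every array, and among genes with a mean at or above the median of all probe sets 25.6% passed. By direction, 29.3% of the members were lower, against 6.02% of all genes and 9.41% of the brighter ones. For the higher direction the share was 7.32% of the members, against 10.4% and 16.2%. The median difference over the members was -0.28, against 0.02 over all genes.

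**Figure D1:**
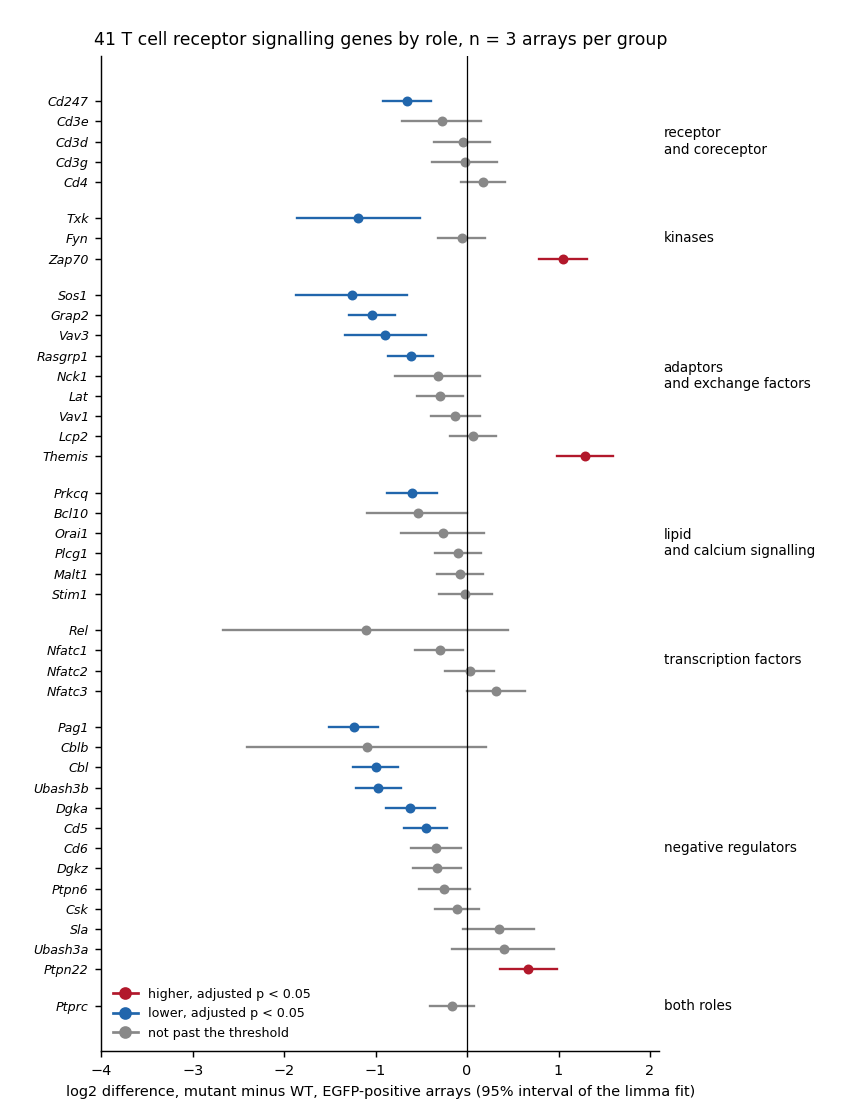
Difference in log2 intensity, mutant minus WT EGFP-positive arrays (3 against 3), for the 41 measured genes grouped by role, with the unadjusted 95% interval of the limma fit. Coloured points passed the adjusted threshold: 3 lie above 0, from Ptpn22 at 0.67 to Themis at 1.29, and 12 below it, from Cd5 at -0.45 to Sos1 at -1.26.

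Activating and inhibiting parts did not separate into opposite directions. Of the 27 activating members, 2 rose (7.41%) and 7 fell (25.9%), with a median difference of -0.26. Of the 13 negative regulators, 1 rose (7.69%) and 5 fell (38.5%), with a median of -0.34. Of all genes 10.4% rose and 6.02% fell. The counts are descriptions of these lists, without a test of one list against the other. In bulk RNA of a sorted population, fewer cells expressing a gene and less RNA per cell cannot be told apart.

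Among the receptor chains, only Cd247 passed the threshold. Cd247 encodes the zeta chain, which carries most of the signalling motifs of the receptor complex. Cd247 read 11.06, 11.31 and 11.14 on the log2 scale in WT EGFP-positive arrays, against 10.47, 10.49 and 10.57 in mutant ones. The highest mutant array was below the lowest WT array, and the mean fell from 11.17 ± 0.13 to 10.51 ± 0.05 (SD, n = 3 each), a difference of -0.66 (SE 0.11, limma adjusted p = 0.0081), or 63.3% of the WT intensity. The EGFP-negative arrays were at 11.51 (WT) and 11.08 (mutant). Further probe sets of Cd247 gave -0.89 (limma adjusted p = 0.01) and -0.51 (limma adjusted p = 0.03).

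The other CD3 chains overlapped between alleles. Cd3d read 12.45, 12.18 and 12.13 in WT and 12.33, 12.17 and 12.09 in mutant EGFP-positive arrays, with a difference of -0.05 (95% interval -0.36 to 0.25). Cd3g read 12.81, 12.85 and 12.39 against 12.72, 12.75 and 12.51, a difference of -0.02 (95% interval -0.38 to 0.33). Differences beyond about these bounds would lie outside the intervals, while smaller ones could not be detected with 3 arrays a group. Cd3e read 12.68, 12.81 and 12.77 in WT and 12.04, 12.7 and 12.67 in mutant arrays. Its difference of -0.28 (95% interval -0.71 to 0.15) came largely from 1 mutant array, and without that array it was -0.07. Cd4, the coreceptor and a sort criterion in every group, read 11.07, 11.2 and 11.15 against 11.35, 11.3 and 11.28. The mutant arrays were all above the WT arrays, yet the difference of 0.17 did not pass (limma adjusted p = 0.37). A second Cd4 probe set gave 0.52 (limma adjusted p = 0.032).

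The proximal kinases moved in opposite directions. Zap70, the kinase that reads the phosphorylated CD3 and zeta chains, read 10.36, 10.14 and 10.31 in WT EGFP-positive arrays and 11.34, 11.23 and 11.38 in mutant ones. Every mutant array was above every WT array, and the mean rose from 10.27 ± 0.11 to 11.32 ± 0.08 (SD, n = 3 each), 2.06-fold (difference 1.05, SE 0.11, limma adjusted p = 0.0011). A second Zap70 probe set gave 1.01 (limma adjusted p = 0.0023), whereas the remaining one, 1439749_at, gave 0.08 (limma adjusted p = 0.71). Txk, a Tec-family kinase that phosphorylates Plcg1, read 9.34, 9.94 and 9.66 in WT and 8.38, 7.92 and 9.09 in mutant EGFP-positive arrays. The groups did not overlap but the mutant arrays were spread over more than 1 log2 unit, and the mean fell from 9.65 ± 0.30 to 8.46 ± 0.59 (difference -1.19, SE 0.29, limma adjusted p = 0.036). Txk was the called member that most often missed the threshold under other processing, in 7 of 15 alternatives, with adjusted p from 0.0032 to 0.12. Fyn, a Src-family kinase that can phosphorylate the CD3 chains, read 11.92, 11.77 and 11.93 in WT and 11.69, 11.85 and 11.9 in mutant arrays, and its difference of -0.06 had a 95% interval of -0.32 to 0.20.

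**Figure D2:**
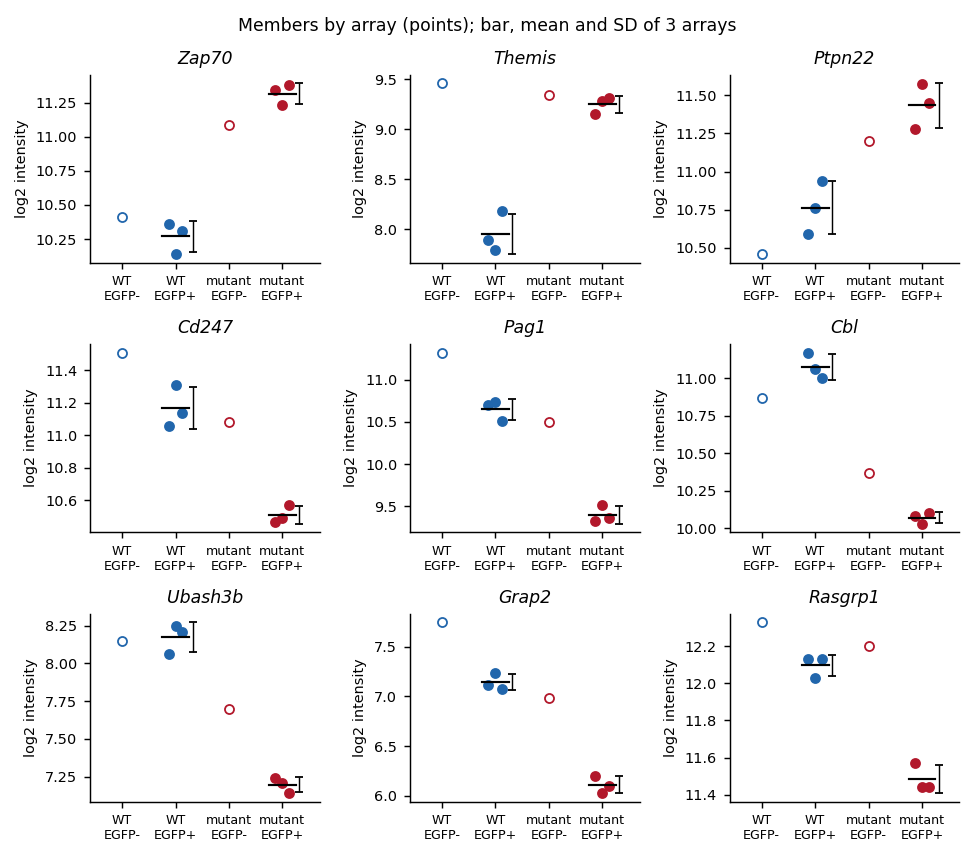
Log2 intensity of 9 members that passed the threshold between alleles. Each point is 1 array, open for EGFP-negative and filled for EGFP-positive cells, and the bars beside the EGFP-positive groups are the mean and SD of 3 arrays; in each panel the WT and mutant EGFP-positive arrays do not overlap, and in Themis the EGFP-negative arrays (9.46 and 9.34) lie with the mutant EGFP-positive ones.

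The adaptors and exchange factors held 5 of the 15 called members. Themis, an adaptor needed for thymocyte selection that binds Grb2 and the phosphatase Ptpn6, read 7.89, 7.79 and 8.18 in WT EGFP-positive arrays, against 9.15, 9.28 and 9.31 in mutant ones. It rose from 7.96 ± 0.20 to 9.25 ± 0.09 (SD, n = 3 each), 2.45-fold (difference 1.29, SE 0.13, limma adjusted p = 0.0009). The 2 EGFP-negative arrays, at 9.46 (WT) and 9.34 (mutant), lay at or just above the mutant EGFP-positive level, so the WT EGFP-positive arrays were the low group. Further Themis probe sets gave 1.69 (limma adjusted p = 0.00055), 1.43 (limma adjusted p = 0.0029) and 0.66 (limma adjusted p = 0.096).

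Grap2 (Gads), which links Lat to Lcp2, read 7.12, 7.24 and 7.08 in WT EGFP-positive arrays and 6.2, 6.03 and 6.1 in mutant ones. Its mean fell from 7.15 ± 0.08 to 6.11 ± 0.08, to 48.7% of WT (difference -1.04, SE 0.11, limma adjusted p = 0.00095). A dimmer Grap2 probe set gave -0.50 (limma adjusted p = 0.31). The scaffold genes that Grap2 joins changed less. Lat read 11.86, 11.84 and 11.91 against 11.49, 11.54 and 11.69, groups that did not overlap, with a difference of -0.30 that did not pass (limma adjusted p = 0.13). Lcp2 read 11.87, 11.89 and 12.05 against 11.91, 12.03 and 12.07, a difference of 0.06 (95% interval -0.19 to 0.32).

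The guanine nucleotide exchange factors for Ras both fell. Rasgrp1, which is activated by diacylglycerol, read 12.13, 12.03 and 12.13 in WT and 11.57, 11.44 and 11.44 in mutant EGFP-positive arrays, a fall from 12.10 ± 0.06 to 11.48 ± 0.08 (difference -0.61, SE 0.10, limma adjusted p = 0.0083). The other 3 Rasgrp1 probe sets that passed gave -0.64, -0.89 and -0.91. Sos1, which is recruited through Grb2, read 8.46, 8.78 and 7.94 against 7.0, 6.82 and 7.58, a fall from 8.39 ± 0.43 to 7.13 ± 0.40 (difference -1.26, SE 0.26, limma adjusted p = 0.018). The Sos1 groups did not overlap, though both were wide. Its other probe sets gave -0.42 to -0.01 and none of them passed.

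Among the Vav family of guanine nucleotide exchange factors, Vav3 read 8.0, 8.29 and 7.73 in WT and 6.79, 7.2 and 7.33 in mutant EGFP-positive arrays, and fell by 0.90 on the log2 scale (SE 0.19, limma adjusted p = 0.02). In the EGFP-negative arrays Vav3 was at 7.16 (WT) and 7.07 (mutant), near the mutant EGFP-positive level. Vav1 read 8.73, 8.84 and 8.6 against 8.5, 8.72 and 8.56, overlapping groups with a difference of -0.13 (limma adjusted p = 0.59). The adaptor gene Nck1 read 8.82, 9.46 and 8.83 against 8.84, 8.49 and 8.82 (difference -0.32, limma adjusted p = 0.39).

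**Figure D3:**
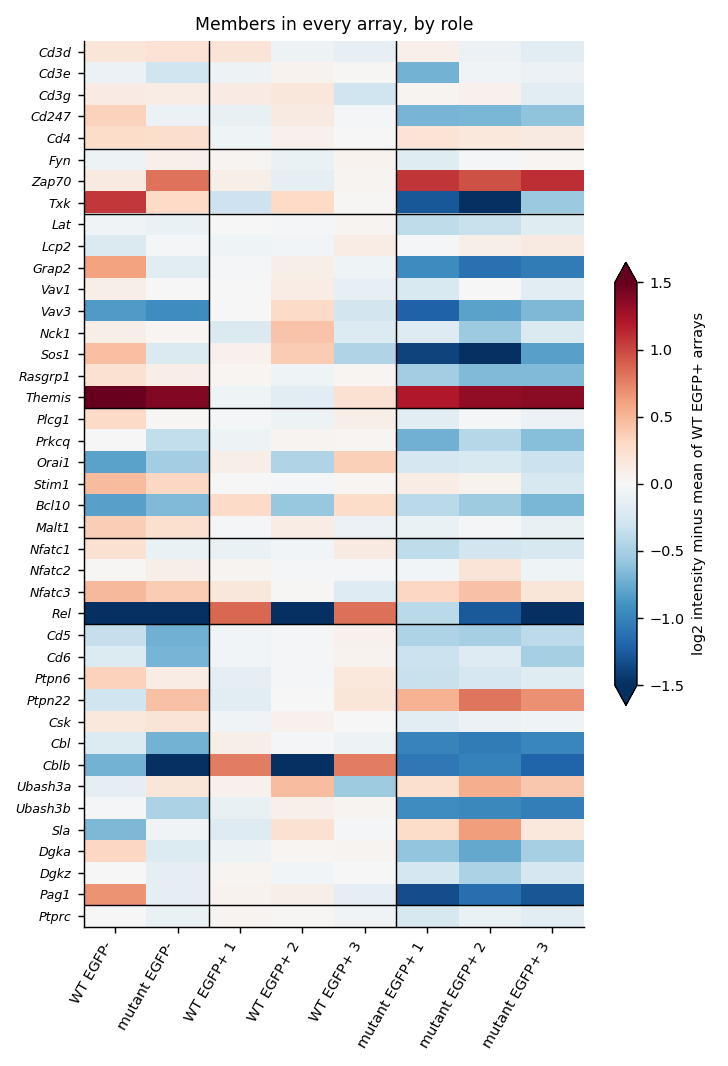
Log2 intensity of the 41 members in each of the 8 arrays minus the mean of the 3 WT EGFP-positive arrays, with the colour scale ending at -1.5 and 1.5 and horizontal lines between roles. Zap70 and Themis are the reddest genes in the mutant EGFP-positive arrays, Themis also in both EGFP-negative arrays, and Rel and Cblb differ between arrays of the same WT group.

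In lipid and calcium signalling, Prkcq alone passed. Prkcq encodes protein kinase C theta, which couples diacylglycerol to the Bcl10 and Malt1 complex. It read 11.87, 11.99 and 11.97 in WT and 11.22, 11.51 and 11.3 in mutant EGFP-positive arrays, and fell from 11.94 ± 0.07 to 11.34 ± 0.15 (difference -0.60, SE 0.12, limma adjusted p = 0.015). Plcg1, the phospholipase upstream of it, read 10.31, 10.25 and 10.41 against 10.15, 10.31 and 10.23, a difference of -0.10 (95% interval -0.35 to 0.15). The calcium sensor Stim1 differed by -0.02 and the paracaspase Malt1 by -0.08, with overlapping groups in both. Orai1, the calcium channel subunit, read 10.14, 9.6 and 10.4 against 9.79, 9.82 and 9.73, and Bcl10 read 10.77, 9.91 and 10.76 against 10.08, 9.95 and 9.79. In both genes the second WT array was lower than the other WT arrays, and neither difference passed (-0.26, limma adjusted p = 0.49, and -0.54, limma adjusted p = 0.20).

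None of the 4 transcription factors passed by its representative probe set, while 2 of the 4 had an unadjusted p under 0.05 in the limma fit, as did 28.9% of all genes. Nfatc1, whose gene makes a short inducible and longer isoforms, depended on the probe set. The brightest, 1428479_at, read 9.95, 10.01 and 10.19 in WT and 9.67, 9.77 and 9.81 in mutant EGFP-positive arrays, a difference of -0.30 (limma adjusted p = 0.14). In contrast, 1417621_at read 9.35, 9.07 and 9.47 against 10.63, 10.7 and 10.53, a rise of 1.32 (SE 0.13, limma adjusted p = 0.00084). Probe set 1425761_a_at read 8.91, 8.94 and 8.86 against 9.84, 10.49 and 10.18, a rise of 1.27 (SE 0.17, limma adjusted p = 0.0027). The remaining probe sets gave 1.43 (limma adjusted p = 0.068) and 1.04 (limma adjusted p = 0.056). Thus 4 of the 5 Nfatc1 probe sets were higher in the mutant arrays, 2 of them past the threshold, and the brightest one was lower. Which transcripts each probe set detects was not tested. Nfatc2 differed by 0.03 and Nfatc3 by 0.32, and neither passed.

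**Figure D4:**
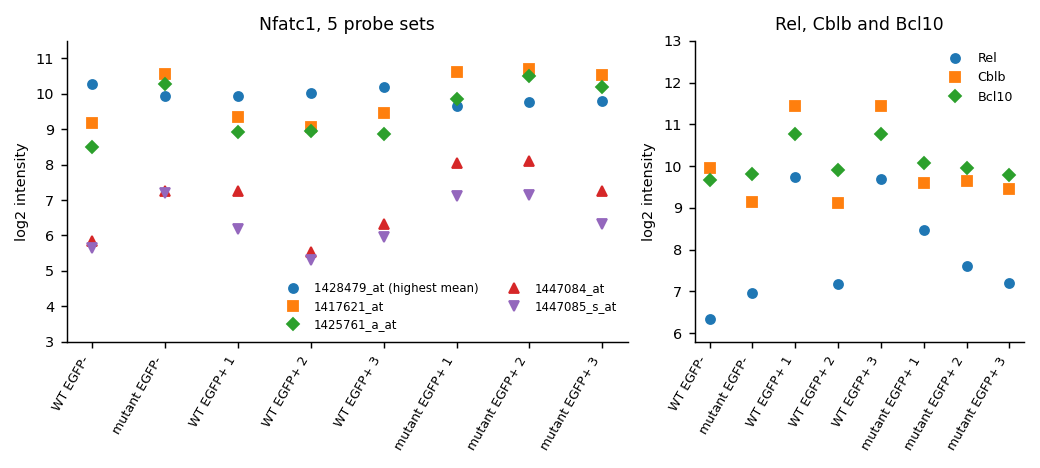
Left, log2 intensity of the 5 Nfatc1 probe sets in each of the 8 arrays; 1428479_at is slightly lower in the mutant EGFP-positive arrays, and 1417621_at and 1425761_a_at are higher in all 4 mutant arrays than in all 4 WT arrays. Right, Rel, Cblb and Bcl10 in the same arrays, where the second WT EGFP-positive array lies apart from the other WT EGFP-positive arrays.

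Rel, which encodes the NF-kappaB subunit c-Rel, varied more within groups than between them. It read 9.73, 7.18 and 9.7 in WT EGFP-positive arrays, against 8.47, 7.61 and 7.2 in mutant ones, 6.33 in the WT EGFP-negative array and 6.96 in the mutant EGFP-negative array. The difference of -1.11 (SE 0.67, limma adjusted p = 0.38) did not exceed that spread. Cblb, a ubiquitin ligase that raises the threshold for T cell activation, had the same shape, with 11.44, 9.12 and 11.44 against 9.59, 9.65 and 9.46 (difference -1.10, SE 0.57, limma adjusted p = 0.29). The other Cblb probe sets did not show the low second WT array to that degree, with 9.04, 9.07 and 9.07 in WT for 1437304_at (difference -0.39, limma adjusted p = 0.10) and 10.26, 9.74 and 9.99 for 1455082_at (-0.28, limma adjusted p = 0.39). The second WT array was also low in immediate-early genes such as Fos. Fos read 12.26, 10.59 and 12.48 in WT against 11.78, 11.97 and 8.71 in mutant EGFP-positive arrays. The mean log2 intensity of 13 stress and handling genes, immediate-early and heat-shock together, was 10.9, 9.97 and 10.79 against 9.81, 9.75 and 8.67. Heat-shock genes were mixed in the second WT array. Among WT EGFP-positive arrays it was the highest for Hspa1b (9.11, 10.75 and 7.74), Hspa1a (6.51, 7.26 and 5.95) and Dnajb1. It was the lowest for Dnajb4 (10.44, 8.42 and 10.51), Hsp90aa1 and Hsph1. Of those 13 genes 4 heat-shock genes (Hspa1a, Hspa1b, Dnajb1 and Dnajb4) were lower in the mutant arrays by the same test and none was higher. Without the second WT array, Rel fell by 1.95 (limma adjusted p = 0.0062), Cblb by 1.87 (0.00015), Bcl10 by 0.83 (0.0057) and Orai1 by 0.49 (0.044). These 4 calls rest on leaving that array out and on the representative probe sets, and the part of the handling genes in them was not tested.

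The negative regulators held 6 called members, of which 5 fell. Pag1, a membrane adaptor that holds Csk near Src-family kinases, read 10.7, 10.73 and 10.51 in WT EGFP-positive arrays, against 9.32, 9.52 and 9.36 in mutant ones. Its mean fell from 10.65 ± 0.12 to 9.40 ± 0.10 (SD, n = 3 each), to 42.2% of WT (difference -1.24, SE 0.12, limma adjusted p = 0.00062). The 3 dimmer Pag1 probe sets gave 0.01, -0.52 and -0.78, and none passed. Csk itself differed by -0.11 (limma adjusted p = 0.61).

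Cbl, a ubiquitin ligase that targets activated receptor complexes, read 11.17, 11.06 and 11.0 in WT and 10.08, 10.03 and 10.1 in mutant EGFP-positive arrays. It fell from 11.08 ± 0.09 to 10.07 ± 0.03, to 49.9% of WT (difference -1.0, SE 0.10, limma adjusted p = 0.00094). Dimmer Cbl probe sets gave smaller falls, -0.7 (limma adjusted p = 0.028) and -0.43 (limma adjusted p = 0.17). Ubash3b (Sts-1), a phosphatase that acts on Zap70, read 8.06, 8.25 and 8.21 against 7.24, 7.21 and 7.14. It fell from 8.17 ± 0.10 to 7.20 ± 0.05, to 50.9% of WT (difference -0.97, SE 0.11, limma adjusted p = 0.0012), and further probe sets gave -0.98 and -0.99. Its paralogue Ubash3a (Sts-2) read 9.55, 9.95 and 8.95 against 9.72, 10.03 and 9.89, overlapping groups with a difference of 0.40 (95% interval -0.16 to 0.95). Its other probe set, 1431698_at, went the other way, with 7.12, 7.07 and 6.96 against 5.22, 5.87 and 6.95 (difference -1.04, limma adjusted p = 0.13), so the direction of Ubash3a depends on the probe set.

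Dgka, a kinase that removes diacylglycerol, read 12.64, 12.75 and 12.76 in WT and 12.12, 11.95 and 12.22 in mutant EGFP-positive arrays. It fell from 12.72 ± 0.07 to 12.10 ± 0.13, to 65.2% of WT (difference -0.62, SE 0.12, limma adjusted p = 0.012). Its paralogue Dgkz read 12.68, 12.6 and 12.63 against 12.37, 12.16 and 12.39, groups that did not overlap, and its difference of -0.33 did not pass (limma adjusted p = 0.10). Cd5, an inhibitory surface receptor whose level tracks receptor signal strength in thymocytes, read 12.4, 12.42 and 12.51 against 11.98, 11.94 and 12.05, a fall of 0.45 (SE 0.10, limma adjusted p = 0.025). The related receptor Cd6 differed by -0.34 (limma adjusted p = 0.11).

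Ptpn22, a phosphatase that acts on Src-family kinases and Zap70, was the only negative regulator to rise. It read 10.59, 10.76 and 10.94 in WT and 11.28, 11.57 and 11.45 in mutant EGFP-positive arrays, a rise from 10.76 ± 0.17 to 11.43 ± 0.15, 1.59-fold (difference 0.67, SE 0.13, limma adjusted p = 0.016). The phosphatase gene Ptpn6 (SHP-1) read 10.98, 11.11 and 11.29 against 10.79, 10.88 and 10.95, a difference of -0.25 (limma adjusted p = 0.25), whereas its probe set of largest variance gave 0.2. The adaptor gene Sla (SLAP), which promotes turnover of the receptor, read 10.99, 11.41 and 11.16 against 11.46, 11.81 and 11.34, overlapping groups with a difference of 0.35 (limma adjusted p = 0.25). Ptprc (CD45), a phosphatase that both activates and restrains Src-family kinases, read 13.16, 13.14 and 13.07 against 12.88, 13.02 and 12.95, a difference of -0.17 (limma adjusted p = 0.37).

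All 15 called members had EGFP-positive groups that did not overlap, as did 24 of the 41 members in all, against 34.2% of all genes. The sample titles open with numbers that fall into 3 series (beginning 76, 82 and 85), each holding 1 WT and 1 mutant EGFP-positive array. The labels do not say what these numbers are. Since the groups of the called members do not overlap, the sign of the mutant minus WT difference within a series is fixed, and only its size can vary. It was 0.98, 1.08 and 1.07 for Zap70, 1.25, 1.49 and 1.13 for Themis, and -1.38, -1.21 and -1.14 for Pag1. It was most uneven for Txk (-0.96, -2.02 and -0.57) and Sos1 (-1.46, -1.96 and -0.36) among the members that fell by over 1 log2 unit.

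Cell cycle genes moved with the allele. Of 13 such genes 12 rose and none fell, and their summed intensity was 9364 to 15480 in WT against 34210 to 38115 in mutant EGFP-positive arrays, and 9241 and 24137 in the WT and mutant EGFP-negative arrays. Cd8a, a marker of another T cell type, read 6.36, 5.22 and 6.29 in WT against 8.5, 8.84 and 5.95 in mutant EGFP-positive arrays (difference 1.81, limma adjusted p = 0.16). Its part in the results, and that of cell cycle genes, was not tested. The mutant array with the low Cd8a reading had Zap70 at 11.38, Themis at 9.31 and Cbl at 10.1, the other mutant arrays reading 11.34 and 11.23, 9.15 and 9.28, and 10.08 and 10.03. These genes were picked from members whose groups do not overlap, so that array had to lie on the mutant side. Their values there therefore say nothing on the part of Cd8a. The other CD8 marker, Cd8b1, did not follow Cd8a. Cd8b1 read 6.86, 6.66 and 7.13 in WT against 6.82, 7.41 and 6.56 in mutant EGFP-positive arrays (difference 0.05, limma adjusted p = 0.94). The summed intensity of the 2 CD8 markers was 138 to 218 and 156 to 628, and 0 of the 2 passed. Of the other marker lists, T cell markers had 2 of 6 lower (Trat1 and Cd28), regulatory T cell markers 1 of 5 higher (Foxp3) and 1 lower (Il2ra), thymocyte markers 1 of 5 lower (Cd1d1), and NK and erythroid markers none of 3 and none of 2.

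Ratios of related genes were compared within each array, for 8 pairs in which both members were measured. The ratio of Ubash3a to Ubash3b moved by 1.37 on the log2 scale from WT to mutant, but by -0.04 with the probe sets of largest variance, which take the other Ubash3a probe set. The ratio of Ptpn6 to Ptpn22 moved by -0.92 (-0.47 with the probe sets of largest variance), and that of Vav1 to Vav3 by 0.77 (0.7). With the representative probe sets the WT and mutant arrays of these pairs did not overlap, and the exact permutation test (two-sided) gave p = 0.1, the smallest that 3 arrays against 3 can give, and 0.13 after Benjamini-Hochberg adjustment over the 8 pairs. The ratio of Dgka to Dgkz moved by -0.29, that of Nfatc1 to Nfatc2 by -0.33 and that of Nfatc2 to Nfatc3 by -0.29, each with the same exact p of 0.1. The sign of the Nfatc ratios turned with the probe sets of largest variance, to 1.15 for Nfatc1 to Nfatc2 and 0.11 for Nfatc2 to Nfatc3. The brightest Nfatc1 probe set was the only one of 5 that was lower in the mutant arrays. Cd5 to Cd6 moved by -0.11 (exact permutation p = 0.4). Cbl to Cblb moved by 0.1 (exact permutation p = 1), from -0.33 to 0.86 when single arrays were left out.

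Promoter sequences are shown for the 3 genes that rose and for Cbl and Grap2, which fell to about the same share of WT, so that genes moving each way can be read side by side. Each runs 5′ to 3′ on the gene's strand from 250 bases before to 50 bases after the start in RefSeq (GRCm38.p6). Capitals mark a match to the forkhead motif TGTTTAC or the NFAT core TGGAAA on either strand.
Zap70, chr1:36761548-36761847, plus strand: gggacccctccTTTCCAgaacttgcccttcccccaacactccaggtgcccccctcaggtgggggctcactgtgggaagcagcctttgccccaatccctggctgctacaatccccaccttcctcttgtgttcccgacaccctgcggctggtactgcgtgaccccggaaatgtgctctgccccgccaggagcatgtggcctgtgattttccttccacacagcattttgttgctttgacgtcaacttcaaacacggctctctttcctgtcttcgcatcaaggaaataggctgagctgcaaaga
Themis, chr10:28668110-28668409, plus strand: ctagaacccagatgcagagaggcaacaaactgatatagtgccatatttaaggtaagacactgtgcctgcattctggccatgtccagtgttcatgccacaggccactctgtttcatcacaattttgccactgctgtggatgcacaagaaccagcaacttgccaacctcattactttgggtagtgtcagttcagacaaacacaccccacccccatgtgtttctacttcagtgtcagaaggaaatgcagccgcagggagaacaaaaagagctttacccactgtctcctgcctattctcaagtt
Ptpn22, chr3:103859545-103859844, plus strand: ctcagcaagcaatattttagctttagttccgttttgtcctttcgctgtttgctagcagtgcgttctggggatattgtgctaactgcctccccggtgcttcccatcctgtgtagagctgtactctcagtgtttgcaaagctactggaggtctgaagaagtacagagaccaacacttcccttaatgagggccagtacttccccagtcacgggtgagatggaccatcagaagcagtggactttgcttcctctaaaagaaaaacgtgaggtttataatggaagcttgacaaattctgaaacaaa
Cbl, chr9:44233997-44234296, minus strand: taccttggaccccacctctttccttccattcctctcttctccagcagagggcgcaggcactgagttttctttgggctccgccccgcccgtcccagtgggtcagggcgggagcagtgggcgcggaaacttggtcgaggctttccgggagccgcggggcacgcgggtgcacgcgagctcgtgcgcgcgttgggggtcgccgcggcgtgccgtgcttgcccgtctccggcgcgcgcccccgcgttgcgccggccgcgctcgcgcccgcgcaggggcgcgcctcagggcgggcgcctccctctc
Grap2, chr15:80623233-80623532, plus strand: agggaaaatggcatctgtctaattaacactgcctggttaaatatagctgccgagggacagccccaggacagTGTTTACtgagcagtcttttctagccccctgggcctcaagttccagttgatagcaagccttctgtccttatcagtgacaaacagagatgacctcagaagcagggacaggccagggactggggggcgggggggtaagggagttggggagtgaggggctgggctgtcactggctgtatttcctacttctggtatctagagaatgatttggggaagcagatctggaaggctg
The Zap70 window holds the NFAT core on its opposite strand, where it reads TTTCCA as printed, and the Grap2 window holds the forkhead motif. The windows of Themis, Ptpn22 and Cbl hold none of the motifs searched. Ubash3b, which fell to 50.9% of WT and is not shown, also has the NFAT core in its window. So do Cd5 and Dgka, which fell too, so the core is not limited to genes that rose. Over the 35 members with a promoter entry, the forkhead motif was in 3, Grap2, Nfatc2 and Nfatc3, against 3.55% of 27025 genes. The NFAT core was in 8 (Cd3e, Cd3g, Cd5, Dgka, Nfatc2, Ptpn6, Ubash3b and Zap70), against 21.5%, and the Runx motif TGTGGTT in 0, against 5.37%. A match is a description of letters in this window and does not show binding.

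Within the WT allele, EGFP-positive and EGFP-negative cells were compared with 1 EGFP-negative array, which is assumed to vary like the replicated groups. Themis was the only member past the threshold, 1 of 41, against 1.5% of all genes, while 13 of the 41 had an unadjusted p under 0.05 in the limma fit, as did 10.9% of all genes. Themis fell by 1.51 on the log2 scale from the EGFP-negative to the EGFP-positive arrays (SE 0.19, limma adjusted p = 0.012), from 9.46 to 7.96, and a further Themis probe set gave -1.24 (limma adjusted p = 0.049). A second probe set of Sla, 1420818_at, rose from 9.42 to 10.59, 10.7 and 10.68 in the 3 EGFP-positive arrays (difference 1.24, limma adjusted p = 0.018). Without the second WT EGFP-positive array, Rel was 3.38 higher in EGFP-positive cells, Cblb 1.48, Bcl10 1.1 and Orai1 1.02. With all arrays these differences were 2.54, 0.71, 0.82 and 0.8. The other probe sets, with all arrays, gave 0.23 and 0.16 for Cblb and 0.29 for Orai1. Those of Bcl10 gave 0.81, 1.06 and 0.26.

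Within the mutant allele, 0 of the 41 members passed between EGFP-positive and EGFP-negative arrays, against 0.0879% of all genes, with 8 at an unadjusted p under 0.05 in the limma fit, as for 11.0% of all genes. The Themis difference was -0.09 (limma adjusted p = 0.92). The mutant EGFP difference minus the WT one was 1.41 for Themis (SE 0.27, limma adjusted p = 0.26). No member passed that test either, against 0.066% of all genes, with 3 at an unadjusted p under 0.05, as for 6.76% of all genes. Themis is thus past the threshold under one allele and not the other, without the difference between alleles itself passing. With the title numbers described above as a block, the WT difference of Themis was -1.59 and did not pass (limma adjusted p = 0.077), so that 0 of the 41 members passed within either allele. These comparisons share EGFP-positive arrays with the one between alleles, so they are not independent of it.

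The EGFP-negative arrays give a comparison of the alleles that shares no array with the EGFP-positive one, with 1 array against 1 and hence no test. Regulatory T cell markers differed between these 2 arrays: the WT array read 7.98 for Ikzf2, 6.09 for Ctla4 and 5.38 for Il2ra, and the mutant array read 11.48, 9.26 and 7.47. The part of this difference in the members' values was not tested. The mutant minus WT difference had the same sign there in 14 of the 15 called members (93.3%). Over all called genes the share was 92.1%, so the members' share is near the background. Zap70 was 0.67 higher in the mutant EGFP-negative array, Ptpn22 0.74 higher, and Pag1, Grap2 and Txk differed by -0.82, -0.77 and -0.77. Rasgrp1 and Vav3 differed little, by -0.13 and -0.09. The exception was Themis, which differed by -0.12 there against 1.29 in the EGFP-positive arrays. That exception belongs to the representative probe set: the other Themis probe sets differed in the EGFP-negative arrays by 0.48, 0.25 and -1.22, the first 2 being those that passed in the EGFP-positive arrays. The count of 14 rests on representative probe sets in the same way. Cbl differed there by -0.5, but its further probe sets by 0.77 and 0.16. Those of Rasgrp1 differed by 0.22, 0.09 and -0.07, whereas those of Ubash3b stayed negative, at -0.89 and -1.14. Over the 41 members the differences in the 2 kinds of cells correlated at 0.65 (Pearson) and 0.68 (Spearman), as a description across genes, which are not independent replicates and share the same 2 alleles. Across all genes the Pearson correlation was 0.68 and the Spearman correlation 0.52.

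**Figure D5:**
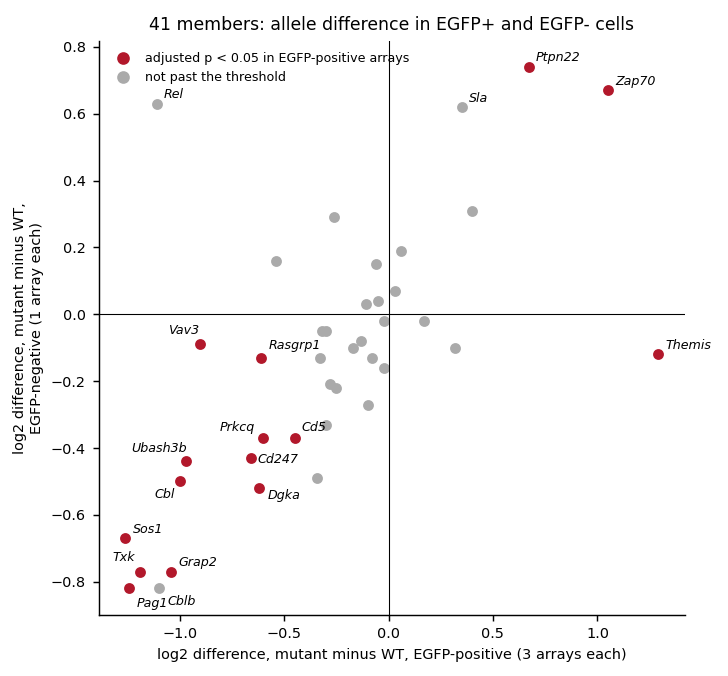
Mutant minus WT difference in log2 intensity of the 41 members, in EGFP-positive arrays (x axis, 3 against 3) and EGFP-negative arrays (y axis, 1 against 1); red points passed the adjusted threshold in EGFP-positive arrays. Of the 15 red points 14 lie in the lower left or upper right, and Themis lies at 1.29 and -0.12.

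Other genes of the pathway, from a longer list of which 29 activating and 22 negative genes were measured, were tested in the same fit. Between alleles in EGFP-positive cells, 9 of the 29 activating genes fell and 0 rose, with a median difference of -0.27. That is 31.0% lower, against 6.02% of all genes and 9.41% of the brighter ones. Trat1, a transmembrane adaptor that stabilises the receptor at the surface, read 9.11, 9.37 and 8.86 in WT and 7.76, 7.64 and 7.4 in mutant arrays (difference -1.52, SE 0.16, limma adjusted p = 0.001). Pik3r1, the regulatory subunit of PI3 kinase, differed by -1.21 (limma adjusted p = 0.0021) and Itpr3, an intracellular calcium channel, by -1.05 (limma adjusted p = 0.0065). Of the 22 negative genes 2 rose and 1 fell, with a median of 0.05, and the 13.6% called is near the 16.5% of all genes. Rnf128 (GRAIL), a ubiquitin ligase of anergic T cells, read 5.29, 5.62 and 5.36 in WT and 7.0, 7.66 and 6.67 in mutant arrays, a rise of 1.69 (SE 0.24, limma adjusted p = 0.004) from a WT level below the array median. Map4k1 (HPK1), a kinase that promotes degradation of Lcp2, rose by 0.53 (limma adjusted p = 0.03). Sit1, an inhibitory transmembrane adaptor, differed by -1.55 (limma adjusted p = 0.042), with 10.36, 9.0 and 10.44 against 8.92, 8.18 and 8.05. None of these genes passed in the comparisons of EGFP-positive with EGFP-negative cells.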

How the data were processed

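Affymetrix arrays of 8 RNA samples gave 1 deposited value per probe set. The authors normalised the arrays with RMA, per the labels, and the deposited values are intensities on a linear scale; other settings are not stated there. Log2 was taken with no pseudocount. Of 45101 probe sets, 64 controls were left out. Of the 45037 tested, 34945 had 1 gene symbol, 932 several and 9160 none in the platform annotation, and only those with 1 were named. limma 3.58.1 in R 4.3.3 fitted a mean per group over all 8 arrays, with lmFit and eBayes. Tests were two-sided and adjusted by Benjamini-Hochberg. Each single EGFP-negative array was taken to have the spread of the replicated groups. The fit was tested on simulated data. Arrays give no read depth, and their number limits the precision. Members, roles and lists were chosen with earlier results of these data known. Every member could be named, with full values for those past the threshold, for paralogue pairs and for the lowest p of a role without one, and of other pathway genes up to 3 in each direction by size. Listed genes without a single-symbol probe set were not analysed here. B cell, myeloid, CD8, NK, erythroid, thymocyte, T cell, regulatory T cell, handling and cell cycle markers were summed per array. Alternatives left out each array, changed the pseudocount, the intensity trend, the array weights, the samples fitted, the scaling or the probe set rule, or added the title number as a block.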

Additional observations from a re-analysis of the deposited data

How the results depend on the processing

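The comparison of alleles in EGFP-positive cells was recomputed under 15 alternatives, and the direction of each of the 15 called members held in all of them. Since their groups do not overlap, leaving arrays out could not turn a direction. The alternative with only the 6 EGFP-positive arrays repeats the main fit, because each EGFP-negative group is a single array. The calls of 9 members (Cd247, Zap70, Grap2, Rasgrp1, Themis, Cbl, Ubash3b, Dgka and Pag1) held in all 15. The others missed the threshold in some, with limma adjusted p up to 0.12 for Txk (7 alternatives), 0.092 for Cd5 (6), 0.077 for Sos1 (4), 0.07 for Vav3 (3), 0.06 for Prkcq (2) and 0.063 for Ptpn22 (2). The count of called members was 10 to 18 when single arrays were left out and 12 with the title-number block. The share of all genes called moved as well, from 9.92% to 19.1% when single arrays were left out and to 13.2% with the block. Without the second WT and the third mutant EGFP-positive array, the count was 18, against 18.5% of all genes. These were the lowest of their groups in the immediate-early genes Fos, Fosb, Jun, Junb and Ier2, and were chosen after seeing the data. Egr1 went the other way in the mutant group, with 10.76, 10.42 and 10.99. With an intensity trend Lat (limma adjusted p = 0.046) and Dgkz (0.025) also passed. Within the WT allele, EGFP-positive against EGFP-negative, 1 to 5 members passed when single arrays were left out, 6 without those 2 arrays, 2 with the probe set of largest variance and 0 with the title-number block, where Themis was at -1.59 (limma adjusted p = 0.077). Within the mutant allele 1 member, Txk, passed without those 2 arrays (-1.8, limma adjusted p = 0.03). The median difference of activating members minus that of negative regulators was 0.08, with a range of 0.14 to 0.24 when single arrays were left out, 0.23 without those 2 arrays and 0.26 with the probe set of largest variance. The cause of these shifts was not tested. The counts of members within the WT and mutant alleles were not set against the share of all genes called under the same settings. They therefore do not show a change particular to the members. The labels give no replicate numbers, so the title-number block is the only paired fit. With the probe set of largest variance the sign turned for Nfatc1 (1.43), Ubash3a (-1.04), Ptpn6 (0.2) and Malt1 (0.1), and for the ratios of Ubash3a to Ubash3b (-0.04), Nfatc1 to Nfatc2 (1.15) and Nfatc2 to Nfatc3 (0.11), while Ptpn6 to Ptpn22 moved to -0.47. These ratio alternatives were added after seeing the data. Differences near 0 also changed sign: Cd3g read 0.14 and Stim1 0.07 without the 2 arrays above, and Cd3g 0.05 with array weights. When single arrays were left out, the range was -0.12 to 0.05 for Cd3d, -0.17 to 0.06 for Cd3g, -0.09 to 0.08 for Stim1, -0.05 to 0.07 for Nfatc2 and -0.33 to 0.86 for the ratio of Cbl to Cblb. A probe set near background understates a change.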
